A study of Morchella importuna with 4 samples.

Results

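Cofactors are small molecules that enzymes need to work, and a fungus makes most of them itself through chains of dedicated enzymes. Pyridoxal phosphate from vitamin B6, thiamine diphosphate, flavins, biotin, lipoate, folates, coenzyme A and NAD serve amino acid, carbon and fatty acid metabolism, while molybdopterin, heme and iron-sulfur clusters hold the metals of nitrate and sulfite enzymes, of respiration and of many oxidases. In fungi, mitochondria house the early and late steps of heme synthesis and the core of iron-sulfur cluster assembly, and a cytosolic machinery passes clusters to proteins outside them.

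The genes described here are those of the edible black morel Morchella importuna whose deposited descriptions name the biosynthesis or assembly of these cofactors, or a protein that binds them. The words of the rule matched 65 of the 11599 genes in the table, and 3 were set aside: a putative pantothenate transporter (JGI 605196), the iron-sulfur cluster transporter atm1 (JGI 533377) and a pyridoxal phosphate-dependent transferase (JGI 608523). The remaining 62 genes fall by description into 11 role groups. Of these, 46 make or assemble a cofactor, and 16 only bind, attach or use one or share a protein fold with such an enzyme. The names rest on sequence similarity and the enzymes were not assayed. The rule reads the descriptions and no measured value.

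The RNA came from cultures on potato dextrose agar at 20 °C in the dark, taken on day 4 when sclerotia, the hardened resting bodies of the fungus, were starting to form. The SII group (2 libraries) is the central area of the plate, where dense, swollen, bead-like cells and micro-sclerotia were present, and the SIO group (2 libraries) is the surrounding area of the same developmental stage with sparse, ordinary hyphae. Both groups share the fungus, medium, temperature and day, and both areas were taken from the same plates of 1 strain. Each library pooled tissue of 2 plates, which the labels call individuals, so p-values measure the spread between such pools. The area labels were not checked against marker transcripts, since none was fixed for either area, and a library of whole tissue cannot tell fewer cells of a type apart from less RNA per cell.

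Gene-assigned reads numbered 24841181 and 23108142 in the SII libraries and 27993281 and 27579812 in the SIO libraries. The SII replicates differed more from each other than the SIO replicates did: the SD of the log2 difference between replicates was 0.68 in SII and 0.23 in SIO. The authors' averaged SIO counts imply a further SIO library without FPKM values, which this spread leaves out. For most of the genes described here, that library lay above or below both SIO replicates. Across all genes tested, 914 were higher and 1084 lower in SII, and the median log2 fold change was −0.11. Scaling the libraries by median ratios shifted that median by 0.11 and turned the split to 1010 higher and 739 lower, so the excess of lower over higher calls across all genes depends on the scaling. The log2 fold change was also weakly related to gene length across genes (Spearman's rho −0.19 over all genes tested, which are not independent).

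Expression is given as FPKM, fragments per kilobase of transcript scaled to the mapped reads of the library, which is corrected for gene length and library depth and so allows levels of different genes to be compared. A gene was called higher or lower in SII at an adjusted p under 0.01 in a limma fit over all genes together with a log2 fold change of FPKM + 1 (SII over SIO) of at least 1 in size. All 62 genes reached 1 FPKM in at least 2 libraries and were tested. Their median level was 14.3 and 16.6 FPKM in SII replicates 1 and 2, against 32.9 and 32.4 FPKM in SIO replicates 1 and 2.

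More of these genes were lower than higher in SII. Of the 62, 2 (3.23%) were called higher in SII, against 10.3% of all genes tested, and 14 (22.6%) were called lower, against 12.2%. The remaining 46 did not pass. Both SII libraries lay below both SIO libraries for 35 genes (56.5%, against 43.9% of all genes tested) and above them for 12 (19.4%, against 35.6%), and the areas overlapped for 15. The median log2 fold change of the 62 was −0.72, against −0.11 over all genes tested. With median-ratio scaling, which brings the median of all genes to 0.00, it was −0.62. It came closer to that of all genes with the length trend removed (−0.45, against 0.00 over all genes) and with a minimum of 10 FPKM (−0.42 over the 47 members tested, against −0.15 over all genes). The share called lower was thus above that of all genes and the share called higher below it.

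**Figure D1:**
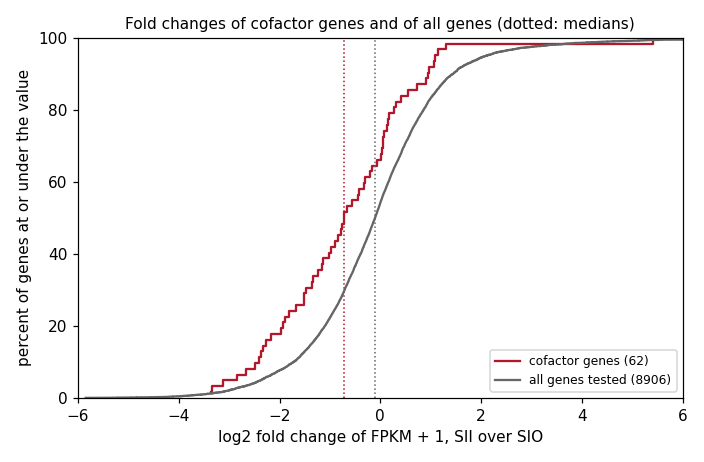
Cumulative distribution of the log2 fold change of FPKM + 1 (SII over SIO, horizontal axis) for the 62 cofactor genes (red) and all 8906 genes tested (grey), with dotted lines at their medians of −0.72 and −0.11; the vertical axis is the percent of genes at or under each value. Over the middle of the range the red curve lies to the left of the grey one. It spans −3.36 to 5.42, and the grey curve starts below its low end.

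How many calls were made depended on the libraries. Without SIO replicate 1 or without SIO replicate 2, where the spread rests on the SII libraries alone, the only call left was that of JGI 494262 (log2 fold change 5.42 in either case). The 14 genes called lower kept their sign but had adjusted p values of 0.0280 to 0.113 without SIO replicate 1 and of 0.0289 to 0.0974 without SIO replicate 2, and the other gene called higher, JGI 603636, had 0.0990 and 0.0944. With an SII replicate left out, where the spread rests on the SIO libraries alone, the genes called in the full fit kept their sign. Without SII replicate 1, the 14 called lower had log2 fold changes of −3.54 to −1.12 and those called higher 1.05 to 5.20. Without SII replicate 2, the ranges were −3.64 to −1.38 and 1.23 to 5.63. At an adjusted p under 0.05 in limma, 4 of the 62 members were called higher and 22 lower, against 15.6% and 21.1% of all genes tested.

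Of the 46 genes that make or assemble a cofactor, 1 was called higher and 12 lower, and their median log2 fold change was −0.37. Of the 16 that bind, attach or use one or only share a fold, 1 was called higher and 2 lower, with a median of −1.06. Over all genes tested, 10.3% were called higher and 12.2% lower, with a median of −0.11. The share of these 16 called lower was thus near that of all genes. Both SII libraries lay below both SIO libraries for 21 of the 46 makers and 14 of the 16 other genes, against 43.9% of all genes tested. The share of the makers was thus near that of all genes. The difference between the makers and the other genes was not tested. By role group, the heme group held 4 lower calls among 9 genes, vitamin B6 held 3 among 8, and pantothenate and coenzyme A 2 among 5. The heme group counts JGI 554871, a lower call on the branch to siroheme, the cofactor of sulfite and nitrite reductases. Riboflavin had 1 higher and 1 lower call among 4 genes, and the molybdenum cofactor 1 higher and 1 lower among 7. Biotin, folate and NAD had 1 lower call each, among 5, 6 and 5 genes. Thiamine (7 genes), lipoate (1 gene) and iron-sulfur cluster assembly (5 genes) had no call in either direction.

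**Figure D2:**
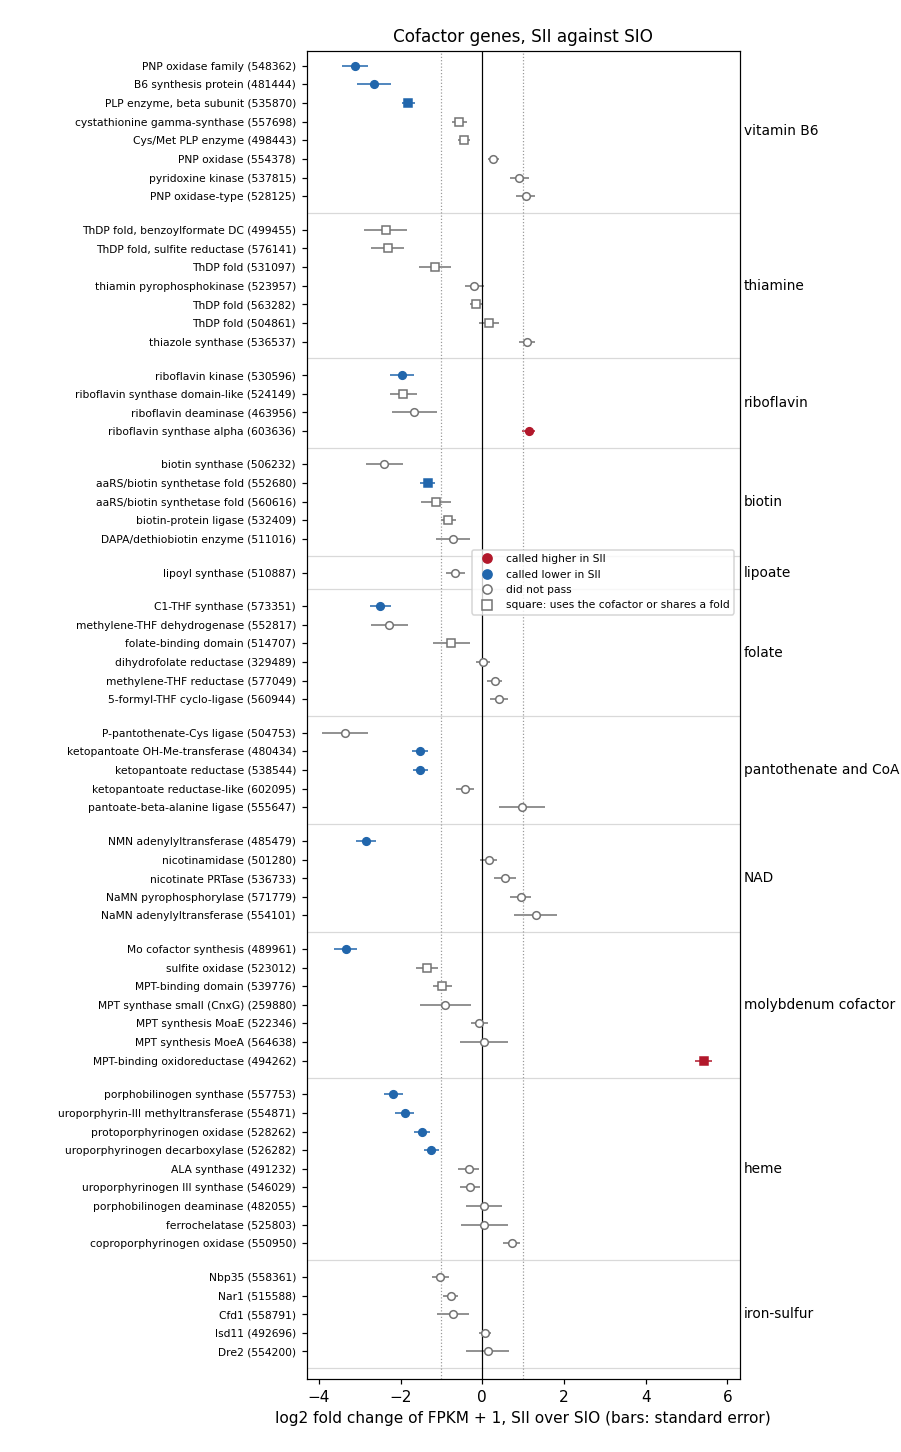
Log2 fold change of FPKM + 1 (SII over SIO, horizontal axis; bars are standard errors) of each of the 62 genes, grouped by cofactor and ordered by value within each group, with JGI numbers in parentheses. Filled symbols were called (red higher in SII, blue lower) and open ones did not pass, squares mark genes that use a cofactor or share a fold, and dotted lines mark a log2 fold change of 1 in size; 14 symbols are blue and 2 are red.

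Pyridoxal phosphate, the active form of vitamin B6, is the coenzyme of most amino acid-converting enzymes. The gene gene_1999 of the deposited table is described as a vitamin B6 biosynthesis protein. Fungi build the coenzyme de novo with a synthase that works with a glutaminase, and the description does not tell these apart. Its level was 5.10 and 11.8 FPKM in SII, against 47.5 and 63.1 FPKM in SIO, from 118 and 254 reads in SII and 1239 and 1621 reads in SIO. Both SII values were well below both SIO values, while the SII replicates themselves differed more than 2-fold. The log2 fold change was −2.66 ± 0.42 (SE, adjusted p = 0.00961). This call was close to the threshold and was lost with a pseudocount of 0.1, with median-ratio or quantile scaling, without the mean-variance trend and with the trend with gene length removed. Over all alternatives the fold change was between −3.19 and −2.13 and the adjusted p between 2.51e-05 and 0.0589.

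The salvage enzymes, which recover the coenzyme from other vitamin B6 forms, had fold changes of both signs, and only a fall passed the test. JGI 548362, of the pyridoxamine 5'-phosphate oxidase family, had 26.6 and 14.3 FPKM in SII, against 172 and 183 FPKM in SIO, and fell (log2 fold change −3.12 ± 0.32, SE, adjusted p = 0.00465). The oxidases of this family convert pyridoxine and pyridoxamine phosphates to pyridoxal phosphate, but the family also has members with other substrates. By contrast, JGI 554378, described as the oxidase itself, had 85.3 and 83.1 FPKM in SII, against 71.3 and 68.2 FPKM in SIO (0.27 ± 0.14, SE, adjusted p = 0.177). JGI 528125, an expressed protein whose closest match is a pyridoxamine phosphate oxidase, had 145 and 97.4 FPKM in SII, against 55.2 and 57.2 FPKM in SIO (1.07 ± 0.24, SE, adjusted p = 0.0220). Pyridoxine kinase (JGI 537815), which phosphorylates the vitamin, had 85.6 and 58.7 FPKM in SII, against 38.2 and 36.4 FPKM in SIO (0.91 ± 0.23, SE, adjusted p = 0.0316). In these 3 genes, singled out after their values were seen, both SII libraries lay above both SIO libraries without passing the test. That was 3 of the 8 B6 genes, against 35.6% of all genes tested, so the share was near that of all genes.

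Among enzymes that use the coenzyme, JGI 535870, a beta subunit of the pyridoxal phosphate-dependent enzymes that most resembles cysteine synthase A, had 18.6 and 18.0 FPKM in SII, against 71.1 and 62.7 FPKM in SIO. The replicates lay close together in both areas and the gene fell by 1.81 on the log2 scale (SE 0.16, adjusted p = 0.00382). JGI 498443, an enzyme of cysteine and methionine metabolism, had the highest mean of the B6 group over the 4 libraries, at 129 and 125 FPKM in SII, against 173 and 175 FPKM in SIO (−0.45 ± 0.14, SE, adjusted p = 0.0511). Cystathionine gamma-synthase (JGI 557698), which joins cysteine to a homoserine ester, had 14.1 and 16.6 FPKM in SII, against 24.0 and 22.1 FPKM in SIO, and did not pass either (adjusted p = 0.0612).

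No thiamine gene was called. Thiazole synthase (JGI 536537), which makes the thiazole ring of the vitamin, was the most expressed of all 62 genes, at 535 and 673 FPKM in SII, against 305 and 262 FPKM in SIO. Both SII libraries were above both SIO libraries, and the log2 fold change of 1.08 ± 0.20 (SE, adjusted p = 0.0134) missed the threshold for p. Thiamin pyrophosphokinase (JGI 523957), which turns thiamine into the coenzyme, overlapped between the areas, at 16.5 and 11.9 FPKM in SII, against 17.4 and 15.1 FPKM in SIO. The other 5 genes carry the fold that binds thiamine diphosphate. The one with the highest mean over the 4 libraries, JGI 499455, which resembles benzoylformate decarboxylase, had 28.5 and 76.1 FPKM in SII, against 298 and 201 FPKM in SIO (−2.37 ± 0.52, SE, adjusted p = 0.0216). JGI 576141, described by the same fold but closest to the beta subunit of the sulfite reductase hemoprotein, had 8.69 and 20.3 FPKM in SII, against 68.2 and 73.1 FPKM in SIO (−2.32 ± 0.41, SE, adjusted p = 0.0128). In both, the SII replicates differed more than 2-fold. The other 3 had log2 fold changes between −1.15 and 0.16.

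Riboflavin is the precursor of FMN and FAD. Riboflavin synthase alpha chain (JGI 603636), which forms the vitamin from lumazine, rose: it had 72.9 and 64.2 FPKM in SII, against 30.1 and 31.0 FPKM in SIO. All 4 values lay close to their group mean, and the log2 fold change was 1.14 ± 0.16 (SE, adjusted p = 0.00759). The call of the synthase was lost in limma with same-numbered libraries treated as pairs (adjusted p = 0.0132), though the numbers do not establish a pairing. Riboflavin kinase (JGI 530596), which turns the vitamin into FMN, went the other way, with 25.6 and 44.2 FPKM in SII, against 136 and 134 FPKM in SIO (−1.97 ± 0.29, SE, adjusted p = 0.00852). Among scalings, the call of the kinase was lost with median-ratio scaling, and its adjusted p ranged from 9.81e-06 to 0.0565 over all alternatives. A riboflavin deaminase (JGI 463956), which acts early in the pathway, had 3.62 and 0.581 FPKM in SII, against 8.16 and 7.02 FPKM in SIO (adjusted p = 0.0634). JGI 524149 has only a domain like that of riboflavin synthase, and its 1.40 and 0.477 FPKM in SII, against 7.51 and 5.05 FPKM in SIO, did not pass (adjusted p = 0.0121).

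**Figure D3:**
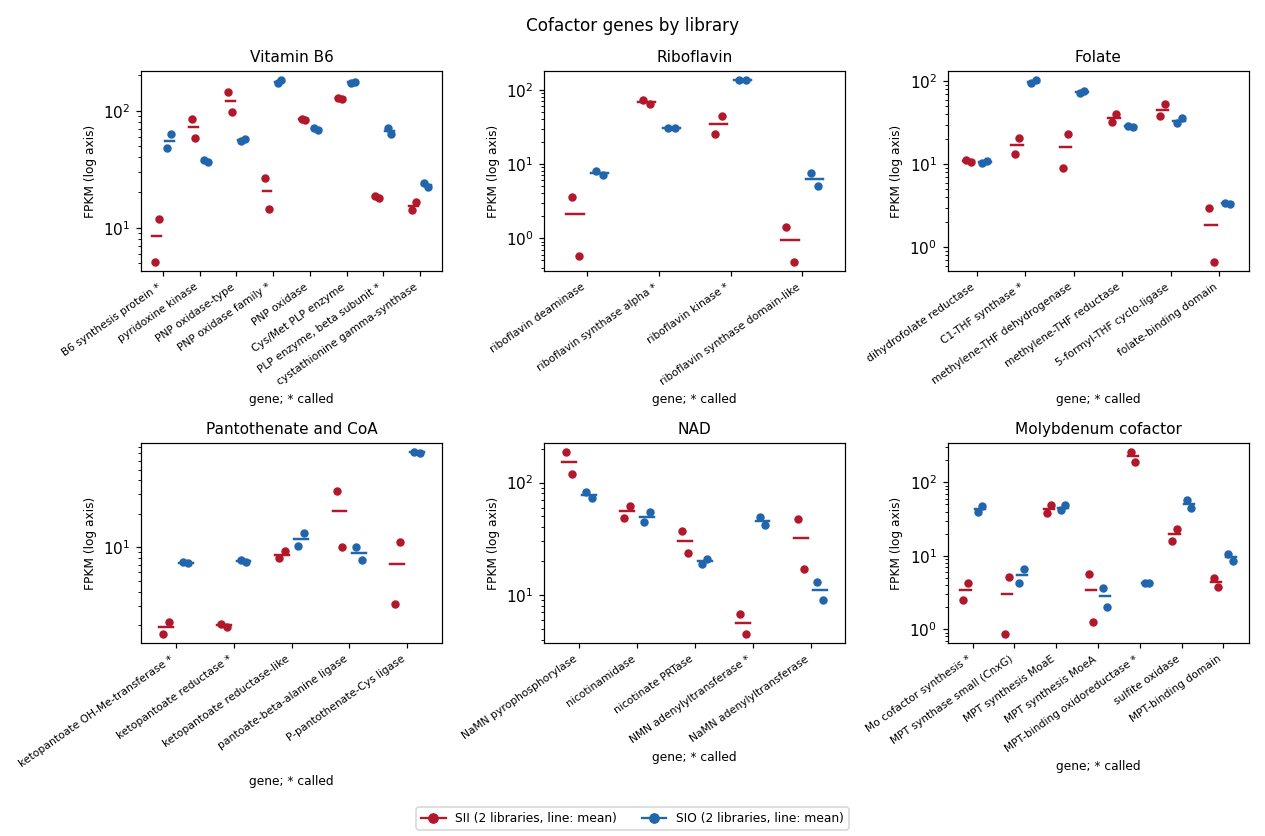
FPKM per library (log axis) of the genes of 6 role groups, with SII (red, 2 libraries) left of SIO (blue, 2 libraries), a line at each mean and an asterisk after called genes. Within riboflavin, the synthase is higher in SII (72.9 and 64.2 FPKM, against 30.1 and 31.0 FPKM in SIO) and the kinase lower (25.6 and 44.2 FPKM, against 136 and 134 FPKM in SIO).

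Biotin is the carboxyl carrier of carboxylases. Biotin synthase (JGI 506232), which closes the sulfur ring in the last step, had 5.99 and 15.5 FPKM in SII, against 53.3 and 58.2 FPKM in SIO. Both SII libraries were below both SIO libraries, but the SII replicates were far apart and the log2 fold change of −2.40 ± 0.45 (SE) did not pass (adjusted p = 0.0145). The gene of this group that was called, JGI 552680, has the fold shared by class II aminoacyl-tRNA synthetases and biotin synthetases, so it may belong to translation and not to biotin. It had 7.57 and 8.65 FPKM in SII, against 22.6 and 21.3 FPKM in SIO (−1.34 ± 0.18, SE, adjusted p = 0.00727). Among scalings, the call was lost with median-ratio and quantile scaling (adjusted p between 0.000284 and 0.105 over all alternatives). The other 3 genes, the enzyme of the preceding steps (JGI 511016), biotin-protein ligase (JGI 532409), which attaches the vitamin to carboxylases, and a second gene with the synthetase fold (JGI 560616), had at most 5.87 FPKM in any library. Both SII libraries were below both SIO libraries in each of these, as in 43.9% of all genes tested. Their log2 fold changes of −0.73, −0.84 and −1.14 did not pass. Lipoyl synthase (JGI 510887), which inserts sulfur to make the lipoate of the pyruvate and oxoglutarate dehydrogenases, had 16.1 and 22.2 FPKM in SII, against 32.9 and 28.2 FPKM in SIO (−0.66 ± 0.23, SE, adjusted p = 0.0696).

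Folates carry single-carbon units. C1-tetrahydrofolate synthase (JGI 573351), which interconverts several of these units, had 13.5 and 20.9 FPKM in SII, against 94.7 and 104 FPKM in SIO, and fell by 2.50 on the log2 scale (SE 0.25, adjusted p = 0.00451). Methylenetetrahydrofolate dehydrogenase (JGI 552817), which acts on the same intermediates, had 8.92 and 23.1 FPKM in SII, against 71.4 and 76.1 FPKM in SIO (−2.27 ± 0.46, SE, adjusted p = 0.0172). The SIO replicates of both genes were close, and the wider gap between the SII replicates went with the larger p of the second. The other folate genes had smaller fold changes, and none passed. Dihydrofolate reductase (JGI 329489), which makes tetrahydrofolate, had 11.2 and 10.5 FPKM in SII, against 10.5 and 10.9 FPKM in SIO (0.02 ± 0.18, SE, adjusted p = 0.931). Methylenetetrahydrofolate reductase (JGI 577049), which feeds methionine synthesis, and 5-formyltetrahydrofolate cyclo-ligase (JGI 560944), which returns a storage form to the cycle, had log2 fold changes of 0.31 and 0.41 (SE 0.18 and 0.23) with adjusted p values of 0.222 and 0.192. A protein with a folate-binding domain (JGI 514707) had at most 3.43 FPKM in any library and did not pass (−0.76, adjusted p = 0.229).

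Pantothenate is the vitamin from which coenzyme A is built. Its first committed enzyme, ketopantoate hydroxymethyltransferase (JGI 480434), was lowly expressed, at 1.66 and 2.15 FPKM in SII, against 7.38 and 7.19 FPKM in SIO, which were 34 and 41 reads in SII and 170 and 163 reads in SIO. Ketopantoate reductase (JGI 538544), which acts next, had nearly the same levels, at 2.03 and 1.94 FPKM in SII, against 7.67 and 7.40 FPKM in SIO. Both fell, by 1.52 (SE 0.19, adjusted p = 0.00651) and 1.51 (SE 0.18, adjusted p = 0.00566) on the log2 scale of FPKM + 1, which understates the change of genes at such low levels. A further gene of the reductase type (JGI 602095) had 7.99 and 9.19 FPKM in SII, against 10.3 and 13.4 FPKM in SIO (adjusted p = 0.181). Pantoate-beta-alanine ligase (JGI 555647), which completes pantothenate, overlapped between the areas, at 32.1 and 10.1 FPKM in SII, against 10.2 and 7.62 FPKM in SIO. Only SII replicate 1 was high. Phosphopantothenate-cysteine ligase (JGI 504753), a later step towards coenzyme A, had the lowest log2 fold change of the 62 genes but did not pass, with 3.07 and 11.2 FPKM in SII, against 72.0 and 70.6 FPKM in SIO (−3.36 ± 0.56, SE, adjusted p = 0.0109).

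In the NAD group, 1 gene was called. NMN adenylyltransferase (JGI 485479), which joins the mononucleotide to AMP, had 6.77 and 4.49 FPKM in SII, against 49.7 and 42.2 FPKM in SIO, and fell by 2.84 on the log2 scale (SE 0.25, adjusted p = 0.00367). A second adenylyltransferase, described as acting on the nicotinate form (JGI 554101), had 47.3 and 16.9 FPKM in SII, against 13.1 and 9.08 FPKM in SIO (1.31 ± 0.53, SE, adjusted p = 0.105). The genes of the pair thus had fold changes of opposite sign, of which only the fall passed, and the difference between them was not tested. Nicotinate mononucleotide pyrophosphorylase (JGI 571779), which takes the de novo pathway to its mononucleotide, was the most expressed of the group at 187 and 119 FPKM in SII, against 81.8 and 73.2 FPKM in SIO (0.94 ± 0.26, SE, adjusted p = 0.0409). Nicotinamidase (JGI 501280) and nicotinate phosphoribosyltransferase (JGI 536733), both of the salvage pathway, had log2 fold changes of 0.16 and 0.54 (adjusted p = 0.568 and 0.156).

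The molybdenum cofactor group held the called genes with the highest and the lowest log2 fold change. JGI 494262, described as an oxidoreductase that binds molybdopterin, had 259 and 192 FPKM in SII, against 4.26 and 4.25 FPKM in SIO. The log2 fold change was 5.42 ± 0.21 (SE, adjusted p = 0.00112), and the adjusted p stayed between 2.13e-06 and 0.0137 over all alternatives, above the threshold only when low genes were not filtered out. The other description deposited for this gene names a WD40 repeat-like protein, which is no molybdenum enzyme, so its function is uncertain. In the opposite direction, JGI 489961, a protein of molybdenum cofactor biosynthesis, had 2.53 and 4.28 FPKM in SII, against 39.3 and 47.0 FPKM in SIO (−3.35 ± 0.27, SE, adjusted p = 0.00336).

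The remaining genes that build molybdopterin did not pass. The MoaE-type gene (JGI 522346), whose bacterial counterpart is the large subunit of molybdopterin synthase, was the most expressed of them and overlapped between the areas, with 37.8 and 48.9 FPKM in SII, against 42.2 and 48.6 FPKM in SIO (−0.07 ± 0.20, SE, adjusted p = 0.785). The small subunit of molybdopterin synthase (JGI 259880) had 0.857 and 5.11 FPKM in SII, against 4.22 and 6.61 FPKM in SIO, and the MoeA-type gene (JGI 564638), whose bacterial counterpart inserts the metal, had 5.62 and 1.25 FPKM in SII, against 3.66 and 2.03 FPKM in SIO. In both the SII replicates spanned more than 4-fold. Sulfite oxidase (JGI 523012), a molybdenum enzyme that turns sulfite into sulfate, had 15.8 and 23.4 FPKM in SII, against 57.5 and 44.7 FPKM in SIO (−1.35 ± 0.26, SE, adjusted p = 0.0164), and a gene with a molybdopterin-binding domain (JGI 539776) differed by −0.98 on the log2 scale without passing (adjusted p = 0.0265).

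Heme synthesis was covered step by step, from 5-aminolevulinate synthase to ferrochelatase, and the fall was not shared by the whole chain. The first enzyme, 5-aminolevulinate synthase (JGI 491232), which commits glycine and succinyl-CoA to the pathway, overlapped between the areas with 74.4 and 49.2 FPKM in SII, against 82.8 and 70.3 FPKM in SIO (−0.33 ± 0.25, SE, adjusted p = 0.330). Porphobilinogen synthase (JGI 557753), which makes the pyrrole, had 5.49 and 7.95 FPKM in SII, against 33.0 and 33.9 FPKM in SIO, and fell by 2.18 on the log2 scale (SE 0.23, adjusted p = 0.00482). This was the largest fall in the chain, at the step just after the committing one. Porphobilinogen deaminase (JGI 482055), which links the pyrroles, had 8.63 and 3.28 FPKM in SII, against 5.80 and 4.66 FPKM in SIO (0.05 ± 0.44, SE, adjusted p = 0.935). Uroporphyrinogen III synthase (JGI 546029), which closes the ring, had 8.28 and 6.85 FPKM in SII, against 8.04 and 11.2 FPKM in SIO (−0.30 ± 0.24, SE, adjusted p = 0.354).

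Of the later steps, uroporphyrinogen decarboxylase (JGI 526282), which trims the side chains, had 14.5 and 17.5 FPKM in SII, against 40.6 and 37.7 FPKM in SIO (−1.25 ± 0.18, SE, adjusted p = 0.00841). Protoporphyrinogen oxidase (JGI 528262), the enzyme before iron insertion, had 13.5 and 16.7 FPKM in SII, against 46.5 and 40.2 FPKM in SIO (−1.47 ± 0.20, SE, adjusted p = 0.00711). Both fell, and among scalings and the length correction both calls were lost with median-ratio scaling and with the length trend removed, the first also with quantile scaling (adjusted p over all alternatives 0.000208 to 0.113 and 0.000149 to 0.0882). Between these steps, coproporphyrinogen oxidase (JGI 550950) had 38.2 and 29.6 FPKM in SII, against 21.0 and 19.1 FPKM in SIO (0.72 ± 0.20, SE, adjusted p = 0.0412). Ferrochelatase (JGI 525803), which inserts the iron, overlapped between the areas, since its SII replicates of 74.1 and 23.9 FPKM enclosed the 47.4 and 34.9 FPKM of SIO (0.05 ± 0.57, SE, adjusted p = 0.948). On the branch from uroporphyrinogen to siroheme, the cofactor of sulfite and nitrite reductases, uroporphyrin-III methyltransferase (JGI 554871) had 2.80 and 1.84 FPKM in SII, against 11.7 and 10.7 FPKM in SIO, from 111 and 68 reads in SII and 525 and 473 reads in SIO. It fell by 1.90 on the log2 scale (SE 0.23, adjusted p = 0.00594).

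**Figure D4:**
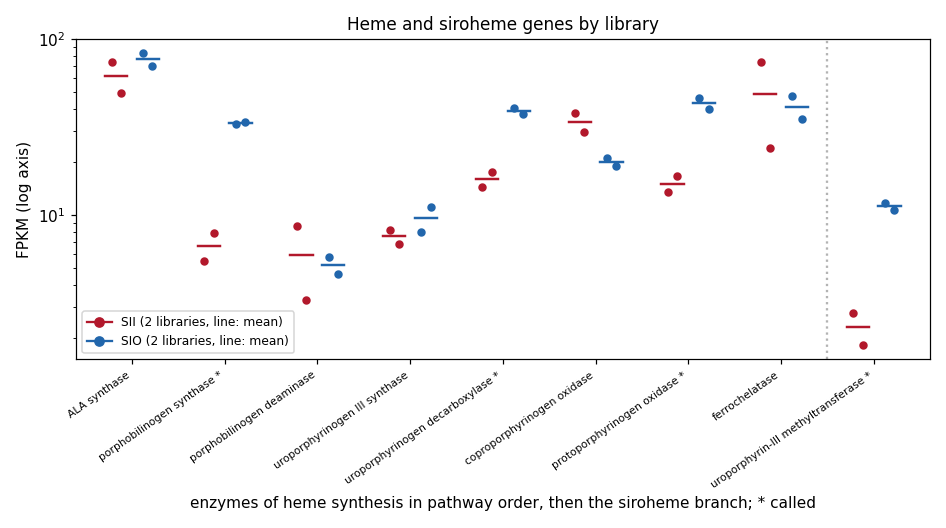
FPKM per library (log axis) of the heme genes in the order of the pathway, with SII (red, 2 libraries) left of SIO (blue, 2 libraries), and the siroheme branch at the end. The areas separate at porphobilinogen synthase (5.49 and 7.95 FPKM in SII, against 33.0 and 33.9 FPKM in SIO) and overlap at 5-aminolevulinate synthase and ferrochelatase.

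No iron-sulfur assembly gene was called. Isd11 (JGI 492696), the small partner of the mitochondrial cysteine desulfurase that supplies the sulfur, was at 215 and 232 FPKM in SII, against 211 and 215 FPKM in SIO (0.07 ± 0.14, SE, adjusted p = 0.731). Dre2 (JGI 554200), which passes electrons to the cytosolic machinery, had 48.1 and 17.5 FPKM in SII, against 32.9 and 21.4 FPKM in SIO (0.13 ± 0.54, SE, adjusted p = 0.861). Both genes overlapped between the areas, Isd11 within a narrow range and Dre2 with SII replicates on either side of SIO. The cytosolic scaffold proteins Nbp35 (JGI 558361) and Cfd1 (JGI 558791) and the Nar1 protein (JGI 515588), which helps hand clusters over to target proteins, had log2 fold changes of −1.03, −0.71 and −0.77 (adjusted p = 0.0175, 0.193 and 0.0246).

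Replicates differed unequally for these genes as for all genes. The median absolute log2 difference of FPKM + 1 between replicates was 0.50 in SII and 0.15 in SIO for the 62 genes, against 0.36 in SII and 0.13 in SIO over all genes tested, and it reached 1.72 in SII and 0.67 in SIO. SII replicate 2 was above SII replicate 1 in 28 of the 62 genes and in 9 of the 14 that were called lower, so neither SII library was the lower one throughout. The smallest read number behind a value was 11 and 10 in SII and 61 and 94 in SIO, and 1 and 4 of the 62 genes were under 1 FPKM in SII, against 0 in each SIO library.

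A further 33 genes are missed by the words of the rule but matched other words for these and neighbouring pathways, ubiquinone synthesis among them. They were described by counts. Not all of them make a cofactor: the matches include an NADH-cytochrome b5 reductase (JGI 500717) and dihydrolipoyl dehydrogenase (JGI 483065). Of these, 1 (3.03%) was called higher and 4 (12.1%) lower in SII, against 10.3% and 12.2% of all genes tested, so the share that fell was near that of all genes. Their median log2 fold change was −0.28. The gene called higher was an ATP-NAD kinase (JGI 514920), which makes NADP, with 129 and 111 FPKM in SII, against 26.0 and 27.5 FPKM in SIO (2.12 ± 0.16, SE, adjusted p = 0.00300). Another ATP-NAD kinase (JGI 488028) fell, with 25.9 and 26.3 FPKM in SII, against 91.9 and 84.5 FPKM in SIO (−1.72 ± 0.15, SE, adjusted p = 0.00363). Genes with the same description thus passed in opposite directions. A further ATP-NAD kinase (JGI 489243) had 11.1 and 13.5 FPKM in SII, against 23.5 and 23.5 FPKM in SIO. It did not pass (−0.89 ± 0.19, SE, adjusted p = 0.0194). The others that fell were Coq6 (JGI 491452, log2 fold change −2.65), a hydroxylase of ubiquinone synthesis, which none of the 62 genes covers, dihydropteroate synthase of folate synthesis (JGI 479653, −2.38) and protoheme IX farnesyltransferase (JGI 536767, −1.57), which takes heme towards the form found in cytochrome oxidase. Near riboflavin synthase in the same pathway, lumazine synthase (JGI 488424), singled out after its values were seen, had 122 and 233 FPKM in SII, against 604 and 585 FPKM in SIO, and did not pass (adjusted p = 0.0149).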

How the data were processed

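Per the labels and the study's methods, paired-end reads of 2 SII and 2 SIO libraries were mapped by the authors with TopHat2 2.1.0; the genome build, the read counter and the program that made the FPKM values are not given in the sources used here. The deposited table holds FPKM per library and, as signal, scaled read counts that the authors averaged per area; its fold changes and p-values of the authors' own comparison were not used. Columns name the area but not which sample, so replicates are numbered by the ending of the column name. Reads per gene were recovered from the FPKM values together with the authors' averaged scaled read counts. All values of the SII and SIO libraries with FPKM were whole within 0.01. The authors' mean for SIO also implied a further SIO library, which was not used as a replicate.

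Genes with at least 1 FPKM in at least 2 of 4 libraries (8906) entered a limma 3.58.1 fit (R 4.3.3) of log2(FPKM + 1) (area as the only term, mean-variance trend, Benjamini-Hochberg adjustment over all genes tested); thresholds were adjusted p 0.01 and absolute log2 fold change 1. The fit was tested on simulated data. An exact permutation test of 2 against 2 libraries cannot go below a two-sided p of 0.333. Tables and figures were made with Python 3.11.15, pandas 2.3.3, numpy 2.4.6 and matplotlib 3.10.9. Named genes were gene_1999 (a vitamin B6 biosynthesis protein), every called member and the 2 members of each role group with the highest mean FPKM over the 4 libraries; others are named to account for every member. The members and lists were chosen with earlier results of these data known. There were 13 alternatives fixed with the design and 2 added after seeing the data (limma-voom on recovered reads, and the trend with gene length removed). No sequence or genome position is given, since the gene identifiers could not be matched to a reference used here.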

Additional observations from a re-analysis of the deposited data

How the results depend on the processing

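Over 15 alternatives, 784 of 915 fold changes of the members kept direction and side of the threshold, 63 lost the call, 44 gained one and 24, in 11 uncalled members near 0, changed sign. Calls among members (2 higher, 14 lower) became 0 and 0 with no filter (8 higher and 27 lower at an unadjusted p under 0.05), 2 and 9 with median-ratio scaling, and 4 and 22 at an adjusted p under 0.05. Leaving out a replicate gave 1 to 7 higher and 0 to 27 lower calls; with 0 lower, 21 (without SIO replicate 1) and 22 (without SIO replicate 2) had an unadjusted p under 0.05 in limma. Over all genes, 1998 calls became 0 with no filter (5305 at an unadjusted p under 0.05), 3262 at an adjusted p under 0.05 and 79 to 3911 without a replicate. Limma-voom on the recovered reads called 2 members higher and 15 lower, and 1981 genes in all. JGI 480434 and JGI 538544 were not tested with a minimum of 10 FPKM. The cause of these changes was not tested. In the paired analysis the replicate block gave 1 higher and 16 lower calls, 1 and 11 of them shared with the unblocked fit. Calls of JGI 603636 (adjusted p = 0.0132), JGI 552680 (0.0121), JGI 526282 (0.0135) and JGI 528262 (0.0101) were lost under the block in limma. Both areas came from the same plates, but no source used here says that a number marks shared plates, and same-numbered libraries deviated with a correlation of 0.20 over genes, from 2 pairs only, so the numbers do not establish a pairing.

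Signs changed with the length trend removed for JGI 563282 (0.020), JGI 329489 (−0.0062), JGI 482055 (−0.034) and JGI 492696 (−0.18), with median-ratio and quantile scaling for JGI 522346 (0.044 and 0.023), and with a pseudocount of 0.1 and limma-voom for JGI 564638 (−0.028 and −0.026). Leaving out a replicate changed signs within the ranges −0.42 to 0.022 (JGI 523957), −0.086 to 0.42 (JGI 504861), −0.017 to 0.060 (JGI 329489), −0.023 to 0.34 (JGI 501280), −0.25 to 0.11 (JGI 522346), −0.74 to 0.82 (JGI 564638), −0.53 to 0.64 (JGI 482055), −0.74 to 0.85 (JGI 525803) and −0.58 to 0.83 (JGI 554200).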

Other observations

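A further SIO library, recovered from the authors' mean, gives values that no comparison above uses. For each of the 14 genes called lower it lay above the authors' SII mean; it was below both SIO replicates for 10 of them, above both for 3 and between them for 1. For both genes called higher it was above both SIO replicates and below the SII mean. These positions were not counted over all genes. For gene_1999, the vitamin B6 biosynthesis protein, the authors' SII mean was 199 scaled reads, against 1627 in the further library and 1023 and 1430 in SIO replicates 1 and 2. For the uncertain oxidoreductase JGI 494262, the authors' SII mean was 8685 scaled reads, against 311 in the further library and 154 and 162 in SIO replicates 1 and 2. In some genes called lower the further library came nearer to the SII mean than to the SIO replicates. For JGI 548362 it had 1037 scaled reads, against 3071 and 3449 in SIO replicates 1 and 2 and an SII mean of 385. For JGI 485479 it had 290, against 984 and 878 and an SII mean of 118.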
